A study of Mus musculus with 8 samples.

Results

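The uncoupling protein genes Ucp1, Ucp2 and Ucp3 were examined in a list of ATAC-seq peak summits of brown adipose tissue (BAT) from cold-exposed mice. All peak summits in the gene bodies or within 100 kb of a RefSeq mRNA transcription start site (TSS) of these 3 genes were taken, which gave 39 of the 32173 summits in the deposited list. Of these, 13 lay at the Ucp1 locus on chromosome 8 and 26 at the Ucp2 locus on chromosome 7. Ucp3 is a neighbour of Ucp2, and all 23 summits of its locus were also counted for Ucp2, so that the 2 loci were not independent.

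ATAC-seq, in which the transposase Tn5 inserts adapters into DNA that nucleosomes leave free, was carried out on nuclei from the BAT of 4 mice, 2 WT and 2 Dot1L-BKO. All mice were on a chow diet and 12 weeks old, and all were killed after 4 hours at 4°C, so that no group without cold was measured by ATAC-seq. Dot1L-BKO mice were Dot1l floxed animals carrying the Ucp1-Cre transgene, and the study describes its WT controls as Dot1l f/f mice. Dot1l, which methylates H3K79, was thus removed in Ucp1+ cells, and the other cells of the tissue kept it. The transgene carries Ucp1 sequence of its own, and reads from it and from the native Ucp1 gene cannot be told apart in the list. Nuclei of each mouse were processed separately, but the authors deposited 1 list for the 4 libraries together, named as WT against Dot1L-BKO. Which libraries were treatment and which were control in the peak calling is not known here. With Dot1L-BKO libraries as the control, a score would measure the excess of WT reads over Dot1L-BKO reads, and with all libraries as treatment it would measure accessibility in both. These readings cannot be told apart from the list, so that a score is given here only as the strength of a call. Because no value belongs to a single library, depth and replicate error are unknown, no test between WT and Dot1L-BKO was possible, and every value here describes that 1 list.

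Uncoupling proteins are carriers of the SLC25 family in the inner mitochondrial membrane. Ucp1 lets protons return to the matrix without making ATP, which releases heat, and defines brown adipocytes. Cold raises its transcription through noradrenaline, β-adrenergic receptors and cAMP, and through nuclear receptors that bind an enhancer upstream of the gene. Ucp2 is expressed in many tissues, immune cells among them, and Ucp3 mainly in skeletal muscle and BAT. Neither is regarded as a main source of heat in the cold.

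At Ucp1, the list held a dense row of high summits from the upstream region to beyond the end of the gene. All 8 summits within 10 kb of its TSS had a score of 10 or more. The score is the −log10 of the q-value of MACS2, so that each step of 1 stands for a q-value 10 times smaller. Ucp2 had more summits in the same window, 10, but none reached this score. Ucp3 had 7, of which 3 reached it, and these 3 lay upstream of the gene and in its first intron rather than at its TSS.

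The sequences around the summits that carry this pattern are given first. They are the forward strand of GRCm38 (mm10) from RefSeq, on which all 3 genes run, and each is named by its distance from the TSS. The first 5 are from Ucp1 and show its 3 upstream summits within 10 kb, its promoter and the highest summit inside the gene. The next 2 are the high summits nearest the Ucp3 TSS, and the last is the stretch just before the Ucp2 TSS, whose nearest summit is at +3 bp. Capitals mark letters that matched one of 16 searched motifs on either strand, and both promoters end at the base before the TSS.
Ucp1 -5673 bp, chr8:83284575-83284775: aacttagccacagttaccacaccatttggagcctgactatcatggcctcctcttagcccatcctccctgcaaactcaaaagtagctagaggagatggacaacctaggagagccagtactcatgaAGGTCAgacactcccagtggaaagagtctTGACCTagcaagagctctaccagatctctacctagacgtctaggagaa
Ucp1 -4707 bp, chr8:83285541-83285741: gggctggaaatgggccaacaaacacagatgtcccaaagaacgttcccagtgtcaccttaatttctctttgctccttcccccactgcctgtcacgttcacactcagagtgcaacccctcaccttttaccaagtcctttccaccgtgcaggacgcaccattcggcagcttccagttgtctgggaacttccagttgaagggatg
Ucp1 -2456 bp, chr8:83287792-83287992: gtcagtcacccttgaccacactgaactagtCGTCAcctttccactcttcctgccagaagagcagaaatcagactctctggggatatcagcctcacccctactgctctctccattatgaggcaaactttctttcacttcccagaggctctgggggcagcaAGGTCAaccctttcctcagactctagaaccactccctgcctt
Ucp1 promoter, chr8:83290148-83290347: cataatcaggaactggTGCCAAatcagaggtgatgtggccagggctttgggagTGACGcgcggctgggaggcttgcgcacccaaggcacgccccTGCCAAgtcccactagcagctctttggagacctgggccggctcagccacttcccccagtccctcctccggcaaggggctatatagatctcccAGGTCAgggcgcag
Ucp1 +7160 bp, chr8:83297408-83297608: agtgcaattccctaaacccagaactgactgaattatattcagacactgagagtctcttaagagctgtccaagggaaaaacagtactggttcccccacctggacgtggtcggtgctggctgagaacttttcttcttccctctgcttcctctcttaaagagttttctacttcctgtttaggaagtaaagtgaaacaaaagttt
Ucp3 -1817 bp, chr7:100471074-100471274: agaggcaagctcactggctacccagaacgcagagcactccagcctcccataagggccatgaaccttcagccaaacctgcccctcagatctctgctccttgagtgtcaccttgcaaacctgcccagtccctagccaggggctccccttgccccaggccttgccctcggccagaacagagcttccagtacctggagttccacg
Ucp3 +1967 bp, chr7:100474858-100475058: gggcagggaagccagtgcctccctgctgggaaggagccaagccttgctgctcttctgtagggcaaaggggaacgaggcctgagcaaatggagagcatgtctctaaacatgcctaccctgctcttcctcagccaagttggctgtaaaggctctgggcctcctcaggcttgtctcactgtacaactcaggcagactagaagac
Ucp2 promoter, chr7:100493158-100493357: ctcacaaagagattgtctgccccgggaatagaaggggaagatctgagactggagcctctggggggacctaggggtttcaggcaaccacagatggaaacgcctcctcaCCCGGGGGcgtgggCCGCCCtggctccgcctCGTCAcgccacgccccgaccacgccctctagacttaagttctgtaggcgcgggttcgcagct

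Ucp1 lies on the plus strand at chr8:83290348-83298456, is 8109 bp long and has 6 exons. Its promoter summit was at -26 bp, before the transcribed sequence, with a score of 33.7. Among all 21000 genes with a curated mRNA, 94.8% had a lower highest score within 1 kb of a TSS, counting genes with no summit there as 0. A promoter summit by itself was common, as 45.2% of all genes had one. A promoter summit with a score of 10 or more was found in 23.5% of genes, and of the 3 uncoupling protein genes only Ucp1 had one.

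Upstream of Ucp1, 3 further summits lay between genes within 10 kb. The one at -2456 bp had a score of 16.7 and lies in the stretch where the enhancer of rodent Ucp1 genes has been described. The summit at -4707 bp scored 13.7, and the one at -5673 bp scored 11.01. All 3 were thus past a score of 10 and lower than the promoter summit. A higher one, of 28.2, lay at -11616 bp, just outside the 10-kb window and between the end of Tbc1d9 and Ucp1.

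Inside Ucp1 there were 3 summits, all downstream of exon 1. They were at +2318 bp in intron 2 with a score of 17.2, at +4943 bp in the coding sequence of exon 5 with a score of 10.05, and at +7160 bp in intron 5 with a score of 26.6. The last was second to the promoter within the window, and it lay before the final exon. The summit at +2318 bp had the lowest GC content of the 39, 34.3% over 100 bp on each side. Another summit, at +9756 bp with a score of 11.6, was beyond the end of the gene on a base that is soft-masked as a repeat. The 8 summits were split evenly, with 4 on each side of the TSS. They spanned 15429 bp, and the median gap between neighbours was 2344 bp (966 to 2625 bp). In the same window it was shorter at Ucp2, 1097 bp, and at Ucp3, 1896.5 bp. The median gap in the whole list was 10278.5 bp, but this cannot be compared, since a window of 10 kb on each side holds no long gaps.

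**Figure D1:**
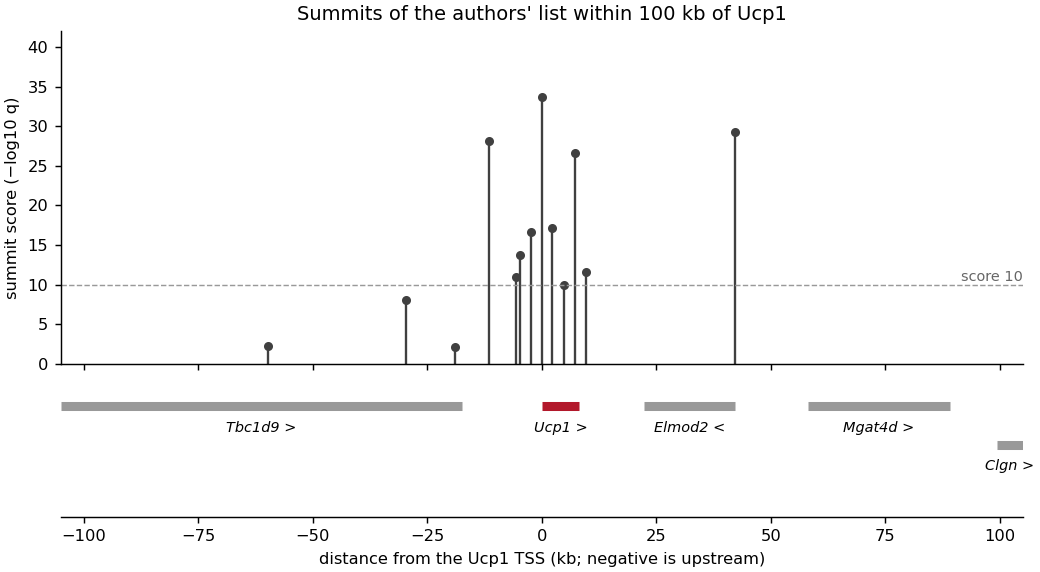
Summit scores (−log10 q, vertical axis) against the distance from the Ucp1 TSS in kb (horizontal axis), with gene bodies below and arrowheads for their strand. Each point is 1 of the 13 summits at the locus; the promoter summit of 33.7 is the highest, and 10 of the 13 are at or above the dashed line at 10.

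Farther from Ucp1 the summits were fewer and mostly lower. There were 3 in Tbc1d9, the gene upstream, with scores of 2.26 at -59793 bp in intron 3, 8.07 at -29705 bp in intron 12, and 2.15 at -19048 bp in exon 18. The only summit farther downstream was at +42289 bp, with a score of 29.3. It was the promoter summit of Elmod2, at -151 bp from the TSS of that gene. Mgat4d and Clgn, which also have a TSS in the window, had no promoter summit. The nearest summits left out by the 100-kb limit were at -516192 bp with a score of 8.12 and at +133150 bp with a score of 2.53. Over the whole locus, 10 of 13 summits (76.9%) had a score of 10 or more, against 23.5% of the whole list. Of the list's 21798 summits farther than 1 kb from a TSS, 3130 reached this score, while at Ucp1 all 7 that were 1 to 10 kb away did.

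The number of summits near Ucp1 was high but not extreme, and the number of them with a high score was what set it apart in the list. Within 10 kb of a TSS, 372 genes (1.77%) had at least as many summits as Ucp1, and the median of all genes was 1 (quartiles 0 and 2). Ucp1 was the only gene with 8 summits of 10 or more, that is, 1 of 21000 genes or 0.00476%, itself included. It follows that, of the 372 genes, only Ucp1 had all its summits at 10 or more. Among genes with fewer summits, 6 had 7 of 7 at this score and 2 had 6 of 6. The median of the lowest score in the 372 genes was 2.15, and the lowest at Ucp1, in exon 5, was just above the limit. The position of Ucp1 depended on the limit chosen, as 18 genes had at least as many summits as Ucp1 at a score minimum of 5 and 205 did at a minimum of 20, where Ucp1 kept 2. With the minimum kept at 10, 11 genes did in a 20-kb window, 7 did without soft-masked summits and 2 did with predicted mRNAs added, Ucp1 included each time. In the 20-kb window and without soft-masked summits, the others were all Ifnz and Gm genes. A summit counts for every gene in reach, so that these may share summits and need not be separate loci. No test can be attached to this place in the list, and extra copies of Ucp1 sequence from the transgene in Dot1L-BKO libraries and signal at the native gene cannot be told apart.

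**Figure D2:**
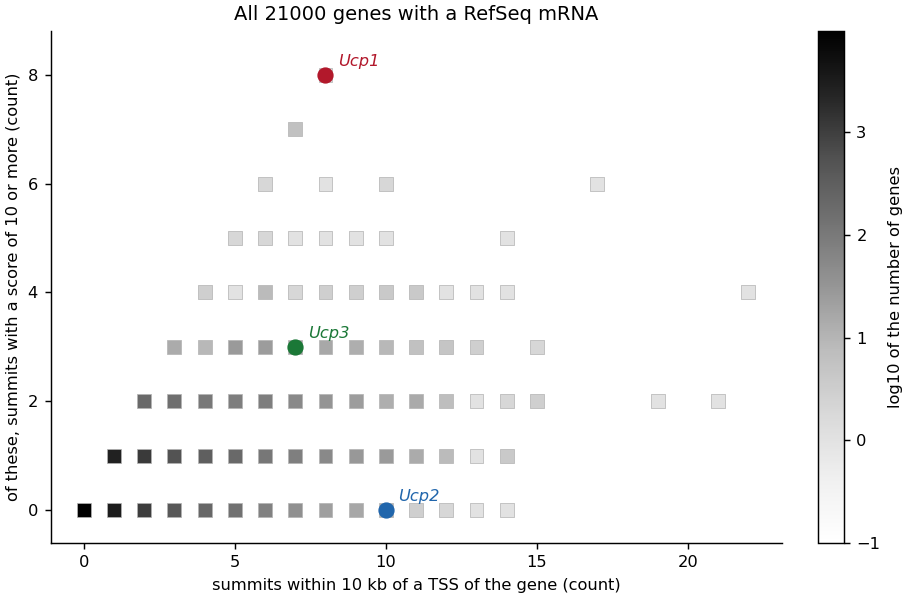
Number of summits within 10 kb of a TSS (horizontal axis) and how many of them had a score of 10 or more (vertical axis) for all 21000 genes, with grey squares shaded by the log10 of the number of genes. Ucp1 stands alone at 8 of 8, Ucp3 is at 3 of 7 and Ucp2 at 0 of 10.

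Ucp3 and Ucp2 lie in the same orientation on chromosome 7, with Ucp3 first. Ucp3 is at chr7:100472991-100486432, with 13442 bp and 7 exons, and Ucp2 is at chr7:100493358-100499629, with 6272 bp and 8 exons. Their TSSs are 20367 bp apart, and 6926 bp separate the end of Ucp3 from the Ucp2 TSS. A single run of summits covered both genes, and 4 of its 5 summits with a score of 10 or more were upstream of Ucp3 or in its first intron. The other was at Coa4, beyond Ucp2. These 5 of 26 summits (19.2%) were a share near the 23.5% of the whole list.

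The highest summit of all 39 was on the Ucp3 side, at -11133 bp from the Ucp3 TSS, with a score of 38.4. It lay in intron 32 of C2cd3, the gene upstream, and was higher than the Ucp1 promoter. The same intron held 3 more, at -7191 bp with a score of 14.0, at -5639 bp with 1.87 and at -4392 bp with 4.16. Between C2cd3 and Ucp3, the summit at -1817 bp scored 16.4. One more, at -41828 bp in intron 22 of C2cd3, scored 3.32. High and low summits thus lay side by side upstream of Ucp3.

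Within Ucp3 there were 4 summits, and 3 of them were in intron 1. The one within 1 kb of the TSS, at +424 bp, had a score of only 3.47, and 59.2% of all genes had a lower highest promoter score. At +1967 bp the score was 11.5, and at +5687 bp it was 2.53. The last, at +11716 bp in intron 6, had a score of 1.83, the lowest of all 39. In all, 572 genes (2.72%) had at least as many summits within 10 kb as Ucp3, and 206 had at least as many with a score of 10 or more. The median score of its 7 summits, 4.16 (1.87 to 16.4), was below the 5.001 of the whole list.

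The Ucp2 promoter had 2 summits within 1 kb of the TSS. One was at +3 bp, in the 5′ UTR of exon 1, with a score of 8.43, and the other at -488 bp with a score of 3.75. Its highest promoter score was above that of 72.6% of genes, counting genes with no promoter summit as 0. Of the 9485 genes with a promoter summit, 5745 scored at least as high, Ucp2 included. Summits then continued through the gene, at +1918 and +3015 bp in intron 2 with scores of 4.16 and 3.32, and at +3484 bp in the coding sequence of exon 3 with 2.92. Intron 4 held 2, at +3978 bp with 5.55 and at +4614 bp with 3.75, and intron 7 held 1, at +5825 bp with 4.04. The summit at +7154 bp, past the end of the gene, scored 4.61. These 9 and the Ucp3 summit at -8651 bp were the 10 within 10 kb. Only 157 genes (0.748%) had at least as many, but the median score was 3.89 (1.83 to 8.43).

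Ucp2 was the most densely covered of the 3 gene bodies, with 7 summits, or 1.12 per kb. Among the 5608 genes of like length, from 0.5 to 2 times its own, 0.410% had at least as many and the median was 0. The 3 summits in the Ucp1 body came to 0.370 per kb, and 8.28% of 6255 genes of like length had at least as many. The 4 in the Ucp3 body came to 0.298 per kb, a number that 5.95% of 7241 genes of like length reached. By number of summits per kb Ucp2 was thus first, but only when summits with scores under 5 were counted. At a minimum of 5 its body kept 2 summits and that of Ucp1 kept all 3, and within 10 kb there were 2 at Ucp2 and 8 at Ucp1. None of these orders has an error.

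Downstream of Ucp2, Dnajb13 held 2 summits, at +10491 bp from the Ucp2 TSS with a score of 5.31 and at +11403 bp with 3.73, and none at its own promoter. Coa4 had a promoter summit at +43623 bp from the Ucp2 TSS with a score of 16.7, and one in the coding sequence of exon 2 with 8.97. At Mrpl48 there was one in intron 1 with a score of 6.02, within 1 kb of its curated TSS. Upstream of that TSS, but inside the full RefSeq gene, lay 2 more with 7.05 and 5.07. The last 3 were outside the Ucp3 window. The 100-kb limit just left out a summit of 51.5 at -100857 bp from the Ucp3 TSS, and for Ucp2 one of 23.8 at +114115 bp. When every summit was given only to the gene of its nearest TSS, Ucp2 kept 11 of 26 and Ucp3 kept 9 of 23.

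**Figure D3:**
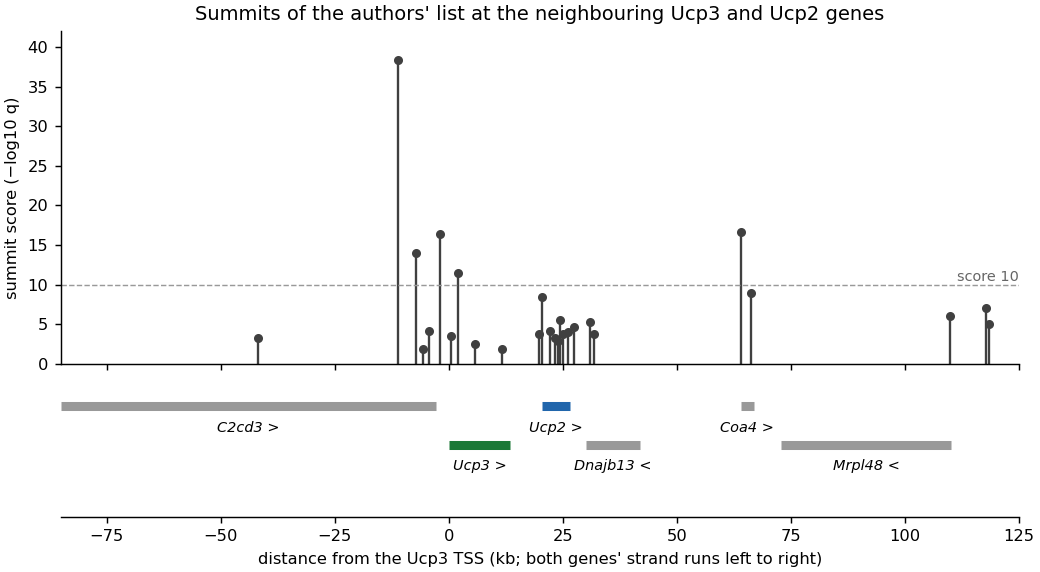
Summit scores (−log10 q, vertical axis) against the distance from the Ucp3 TSS in kb (horizontal axis) for the 26 summits of the joined locus, with gene bodies below. The highest, of 38.4, is in C2cd3 upstream of Ucp3, and the cluster over Ucp2 stays below the dashed line at 10.

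**Figure D4:**
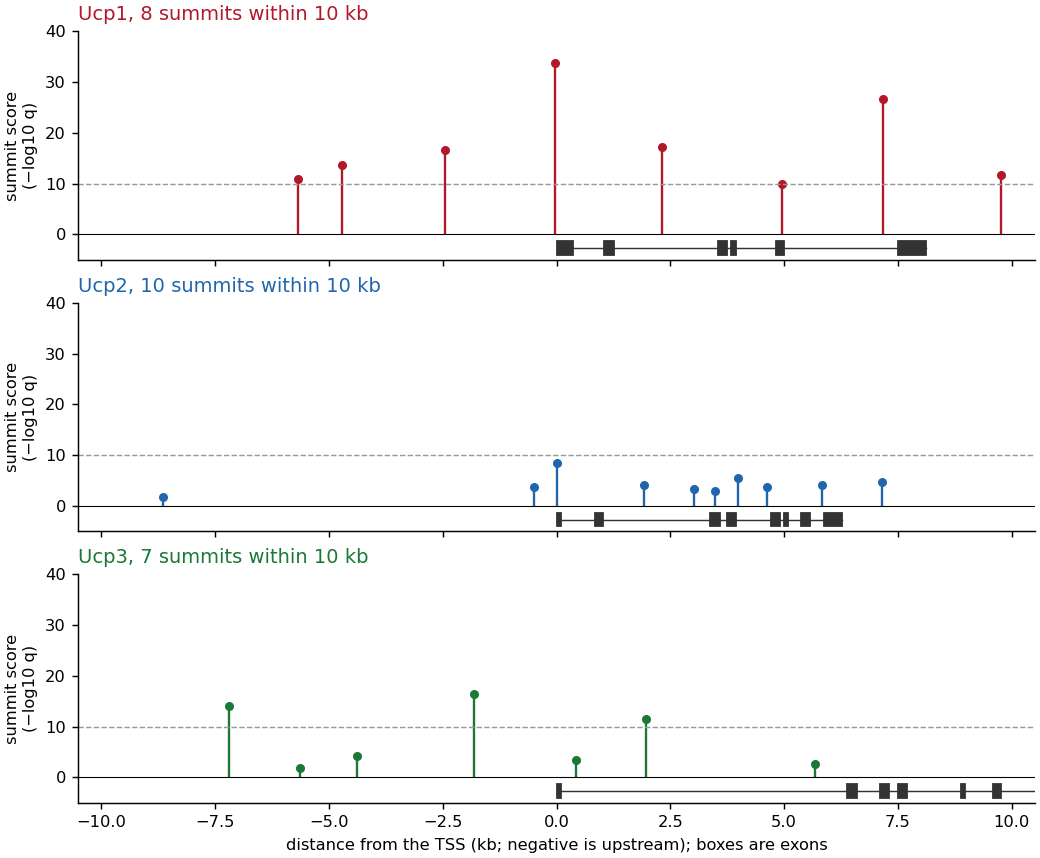
Summit scores (−log10 q, vertical axis, same scale in each panel) within 10 kb of the Ucp1, Ucp2 and Ucp3 TSS (horizontal axis, kb), with exons as boxes. All 8 Ucp1 summits are at or above the dashed line at 10, none of the 10 Ucp2 summits are, and 3 of the 7 Ucp3 summits are.

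The promoters also differed in base composition, which was not used to choose the summits. In the RefSeq windows from 250 bases before to 50 after the TSS, GC content was 64.7% at Ucp1, 64.3% at Ucp2 and 55.0% at Ucp3, against a median of 52.7% in 32851 mouse promoters. The observed over expected ratio of CpG was 0.478 at Ucp1, 0.677 at Ucp2 and 0.222 at Ucp3, against a median of 0.384. The Ucp3 promoter, with the lowest summit score, was thus the poorest in CpG, and those of Ucp1 and Ucp2 were alike in GC content but not in score.

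The windows of all 39 summits and the 3 promoters, of which a few are printed above, were searched for 16 motifs of factors that are known at thermogenic or general promoters. Nuclear receptors such as PPARs, thyroid hormone receptors and ERRs share the core motif AGGTCA. At Ucp1 it was in 3 of the 8 windows of 100 bp on each side of a summit within 10 kb, with 4 matches, at -5649, -5620, -2397 and -14 bp. At Ucp2 and Ucp3 it was in 1 of 17, at +3975 bp of Ucp2, and 15.2% of all windows in the list held it. Over the whole loci it was in 3 of 13 windows at Ucp1 and 2 of 26 at Ucp2 and Ucp3, or 12.8% of the 39, which is no more than in the list. TGACG, the core of the cAMP response element that CREB binds, was at -2526 bp of Ucp1 and at -62 bp of Ucp2. In the Ucp1 promoter it was at -147 bp, outside the summit window. It was in 1 of 13 windows at the Ucp1 locus and 4 of 26 at Ucp2 and Ucp3, the other 3 being in C2cd3 and at Coa4, and 14.8% of all windows and 20.8% of promoters held it. The Ucp3 promoter held AGGTCA at -149 and -44 bp, TGACG at +27 bp and CAGCTG at -40 bp, but no summit lay within 100 bp of these. The Ucp2 promoter also held CAGCTG, at -225 bp. The Ucp1 windows at -4707 and +7160 bp and both Ucp3 windows shown held none of the motifs.

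The core motif of NFI, TTGGCA, was in the Ucp1 promoter at -184 and -106 bp (14.1% of promoters). Of the summit windows, 1 of 13 at the Ucp1 locus and 4 of 26 at Ucp2 and Ucp3 held it, against 10.9% of the list. The GC box GGGCGG, bound by Sp1, was in none of the 13 windows of the Ucp1 locus and in 6 of the 26 of Ucp2 and Ucp3, against 20.6% of the list. CAGCTG, an E-box that myogenic factors bind, was in none of the 13 at Ucp1 and in 3 of the 26, against 13.5%. Matches of EBF (CCCNNGGG) were in 4 of 39 windows, of C/EBP (TTGCNNAA) in 4, and of AP-1 (TGANTCA) in 3, against 15.7%, 10.9% and 6.40% of the list. The CCAAT box, CCAAT, was in 9 of 39 (24.9% of the list), the TATA box, TATAAA, in 4 (3.29%), and CCGGAAG, of ETS factors, in 1 (5.38%). The full cAMP response element TGACGTCA, the ERR site TCAAGGTCA, the NRF1 site GCGCATGCG and paired nuclear receptor cores as DR1 or DR4 (repeats 1 or 4 bases apart) were in none of the 39. These were rare everywhere, at 1.03%, 0.454%, 0.752%, 0.295% and 0.0870% of the list's windows. TGACG is part of TGACGTCA and AGGTCA of TCAAGGTCA, so that these motifs overlap, and a match says only that the letters are there.

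**Figure D5:**
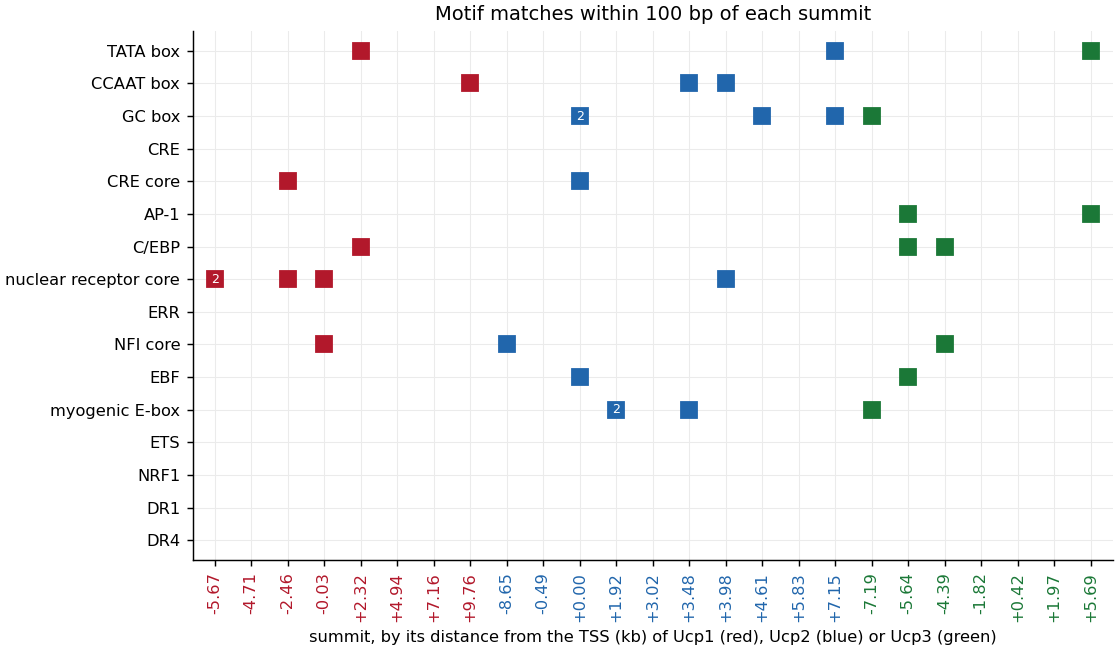
Motif matches (rows) within 100 bp of each of the 25 summits that lie within 10 kb of the TSS of Ucp1 (red), Ucp2 (blue) or Ucp3 (green), with the distance from the TSS in kb along the horizontal axis. A filled square is at least 1 match, with the number inside where there were 2; nuclear receptor core matches are at 3 of the 8 Ucp1 summits and 1 of the 17 others.

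Other genes of thermogenesis were set beside the 3. Of 30 fixed genes, 26 had a promoter summit and 15 had one with a score of 10 or more, while over all genes the shares were 45.2% and 23.5%. Their median was 3 summits within 10 kb. Ucp1, which is not among the 30, was the only gene of all with 8 high ones, so that none of these could have as many. Cpt1b, which brings fatty acids into mitochondria, had the most, 4 of 9. Esrra, a nuclear receptor of mitochondrial genes, had 3 of 8. Pparg, the main factor of fat cell differentiation, had 3 of 3, and Ppargc1a, the cold-induced coactivator, had 2 of 5. For Dot1l itself there were 2 of 5, with a promoter score of 10.9. In 6 of the 30, the promoter score was above that of Ucp1, with Otop1, a proton channel gene, at 67.7 and Esrra at 59.5. Adrb3, the β-adrenergic receptor of adipocytes, Esrrb, Esrrg and Thra had no promoter summit.

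Of 14 genes of skeletal muscle, the other tissue of Ucp3, 2 had a promoter summit, Actn3 and Mylpf, with scores of 22.4 and 43.7. Over all genes, 45.2% had a promoter summit and 23.5% had one of 10 or more. Myod1, Myf5, Myf6, Myog, Ckm and Acta1 had no promoter summit. Within 10 kb, Myog had 3 summits and Mb had 2, all with scores under 10. Of the remaining carriers called uncoupling proteins, Slc25a27 had 1 summit within 10 kb, at -45 bp with a score of 5.55, between the promoter scores of Ucp3 and Ucp2, and Slc25a14 had none within 100 kb.

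In the list used for brown adipocytes, 9 of 9 genes had promoter summits, against 45.2% of all genes. Ucp1 is itself one of the 9, Cox8b, Elovl3, Ppargc1a and Prdm16 are also in the thermogenic list, and the others are Cidea, Adipoq, Fabp4 and Plin1. The study used Fabp4 and Adipoq as adipogenic markers, so that the 9 are not particular to brown adipocytes. Promoter summits were found for 1 of 4 endothelial genes (Cdh5, 2.59), 1 of 5 macrophage and leukocyte genes (Cd68, 2.15) and 1 of 4 genes of progenitors and mural cells (Pdgfra, 4.16). Among 4 muscle genes, Mylpf alone had one, and of Alb, Ins1, Ins2 and Gfap none did. Within 10 kb, however, Cd68 had 7 summits, 2 of them with a score of 10 or more, and the endothelial gene Pecam1 had 1 such summit. No other listed endothelial, macrophage, leukocyte, progenitor or mural gene had one of 10 or more. In bulk tissue, a summit that is low because few cells carry it and one that is low in every cell cannot be told apart, and this holds for Ucp2 and Ucp3.

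The genes most like each of the 3 were named by their promoter score and their numbers of summits within 10 and 100 kb, as a distance in SDs over all genes. For Ucp1 these were Mrm1, Zfyve21, Dennd4b, Fabp4 and Nfe2l1, at distances of 0.201 to 0.242, where the median gene was at 3.56. For Ucp2 they were Dalrd3, Fam166b, Khk, Tinagl1 and Alkbh2 (0.131 to 0.167), and for Ucp3 Mfrp, Uba7, Bricd5, Pcbp4 and Ankrd13b (0.0435 to 0.127). Fabp4, the fatty acid binding protein of adipocytes, had 8 summits within 10 kb and a promoter score of 35.0, which are close to Ucp1 because genes were chosen by these values. Of its 8 summits, 6 had a score of 10 or more.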

How the data were processed

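ATAC-seq of BAT nuclei was analysed from the authors' deposited list of peak summits, made from 2 WT and 2 Dot1L-BKO libraries. Alignment to mm10 was done by the authors with BWA, and peaks were called in Partek Flow with MACS2 2.1.1 (ATAC mode), keeping those under a q-value of 0.05 with at least 2.0-fold enrichment. The deposited score is the −log10 q-value of each summit. It grows with depth and with the pooling of libraries, so that scores were compared only within the list. Read depth per library is unknown, no interval or test was possible, and the handling of Tn5 offsets, multi-mapped reads and duplicates is not given in the sources used here.

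Summits were placed against curated RefSeq mRNAs of the same build, with 25999 TSSs of 21000 genes on chromosomes 1 to 19, X and Y. Windows were 1 kb (promoter), 10 kb and 100 kb on each side of a TSS. Percentiles are the share of genes with a lower value. Motifs were matched on both strands within 100 bp of a summit, with no mismatch. All 3 genes had a RefSeq promoter sequence.

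Named genes were the 3 genes, those with a TSS in their windows, Slc25a27, Slc25a14, the fixed lists and the 5 nearest genes by 3 summit values. Tbc1d9 and C2cd3, whose bodies hold summits of the loci, and Ergic1, Acsl1, Egfl7, Ifnz and the Gm genes were outside this rule and chosen after their values were seen. The members and lists were chosen with earlier results of these data known. Alternatives changed the score minimum, window, merging of summits, repeats, transcripts and assignment. The counting was tested on simulated data. RNA-seq libraries, 2 per genotype, were not analysed here. Python 3.11.15, numpy 2.4.6, pandas 2.3.3 and matplotlib 3.10.9 were used.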

Additional observations from a re-analysis of the deposited data

How the results depend on the processing

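Of 60 alternatives to the main counts, 40 gave a value within 1.5 times the main one, called unmoved here, and 20 did not. Of 24 alternatives for promoter summits, 16 were unmoved. The percentile of Ucp1 by summits within 10 kb ran from 96.3 to 99.9952, that of Ucp3 from 94.6 to 99.0, and that of Ucp2 from 99.4 down to 86.1 and 0 at score minimums of 5 and 10. The Ucp1 locus kept 10 to 15 summits under all 8 alternatives, and within 10 kb it had 5 with a 5-kb window, 7 without soft-masked summits, 10 with a 20-kb window and 8 under the other 5 alternatives. At Ucp2, score minimums of 5 and 10 left 12 and 5 summits at the locus and 2 and 0 within 10 kb, and assignment to the nearest TSS left 11 at the locus. At Ucp3 the same minimums left 9 and 5 at the locus and 3 and 3 within 10 kb, assignment to the nearest TSS left 9, and a 5-kb window left 4. Pairs of a summit and a motif found at it, each counted once, numbered 49 within 100 bp, 27 within 50 bp and 107 within 250 bp, since a wider window holds more letters.

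Alternatives for the number of genes with at least as many high summits as Ucp1 were chosen after seeing the data. It was 1, and 1 again with a minimum of 8, a 5-kb window, merging of summits and nearest-TSS assignment. It was 18, 19 and 205 at minimums of 5, 15 and 20. With a 20-kb window it was 11, the others being Ifnz and Gm genes. It was 2 (with Ergic1) when predicted mRNAs were added, and 7 (with Gm13275 to Gm13279 and Ifnz) without soft-masked summits.

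No paired analysis was possible because libraries have no values of their own in the list. Leaving out a replicate was not run. Unknown depth limits every score and every absence of a summit.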

Other observations

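After Ucp1, the genes with most summits of a score of 10 or more within 10 kb were chosen after their values were seen. A group on chromosome 4, Ifnz of the interferon family with Gm13275, Gm13276, Gm13277, Gm13278 and Gm13279, had 7 of 7 each. With 6 came 3 genes of lipid handling in adipocytes, Acsl1 (6 of 17), which activates fatty acids, Fabp4 (6 of 8) and Plin1 (6 of 10), which coats lipid droplets. Egfl7, an endothelial gene, had 6 of 10, and Gm13272 and Gm13285 had 6 of 6. In all, 14840 of 21000 genes had no such summit and 5176 had 1.

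Scores repeated often in the list, which had 2606 distinct values for 32173 summits, and 1942 summits shared the score 4.16. Of the 8 Ucp1 summits within 10 kb, 5 had a score found nowhere else in the list, and 1 had a score shared by 100 or more summits. Among the 6268 summits of the list in the same range of scores, 6.25% had a score found once and 59.3% had one shared by 100 or more. At Ucp2 and Ucp3, 13 of the 17 summits within 10 kb had such a shared score, against 21230 of the 32173 in the whole list.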
